A study of Xenopus tropicalis with 15 samples.

Results

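Forkhead (Fox) genes encode transcription factors that bind DNA through a winged-helix domain and take part in germ layer, neural and mesodermal specification in vertebrate embryos. The genes described here are the Fox genes of Xenopus tropicalis outside the foxa class, without foxi1, foxj1 and foxn4, which act in ciliated cells and ionocytes. They were taken by symbol from the rows of the deposited count table, and 39 of its 28206 genes qualified. In the gastrula, β-catenin on the dorsal side starts the organiser, the dorsal signalling centre that blocks BMP signals and induces neural tissue, and ectoderm that keeps its BMP signal becomes epidermis.

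Lithium chloride (LiCl) inhibits GSK3β, which stabilises β-catenin and dorsalises the embryo, whereas ultraviolet (UV) light on the vegetal pole after fertilisation prevents the dorsal transfer of Wnt components and ventralises it. The 3 conditions were embryos placed in 0.3 M LiCl at the 32-cell stage, embryos irradiated with UV for 2 min within 30 min of fertilisation, and untreated embryos, with 5 libraries each. All embryos were wild-type, from an out-bred Nigerian strain, at gastrula stage NF11 to NF11.5, and each library held poly(A) RNA from 10 pooled whole embryos. Each condition was sampled in independent experiments, and only clutches in which the treatment showed high penetrance were used. The data therefore describe pools of embryos and not single embryos or regions. In such libraries fewer cells of a type and less RNA per cell cannot be told apart.

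Total counts ranged from 8412818 to 17737546 (median 11152157) in LiCl-treated, from 11890416 to 18254396 (median 13987953) in UV-treated and from 11002771 to 18455126 (median 16560816) in untreated libraries. Of 12 germ layer markers 11 were in the table, and their summed level was 3310 to 4686 CPM (counts scaled to library size) in LiCl-treated, 7573 to 10209 CPM in UV-treated and 5672 to 7306 CPM in untreated libraries. Of 11 markers of differentiated cells of later stages 10 were in the table, with sums of 93.4 to 463 CPM, 98.4 to 215 CPM and 115 to 728 CPM in the same order of conditions. The germ layer markers did not all differ in the direction of their sum. In LiCl-treated and UV-treated embryos krt5.7 averaged 151 and 1787 CPM and tfap2a 278 and 1659 CPM. In the same conditions eomes averaged 401 and 171 CPM and sox17a 544 and 343 CPM. Other mesoderm and endoderm markers of the list went the other way. These were t (471 and 1027 CPM), vegt (945 and 1771 CPM), mix1 (271 and 315 CPM) and sox17b.1 (254 and 270 CPM). The remaining markers were grhl3 (231 and 1222 CPM), sox2 (406 and 267 CPM) and sox3 (106 and 97.5 CPM). TMM-scaled library sizes are used for CPM throughout, and levels compared between genes are given as CPM per kilobase of exon (RPKM).

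The libraries of LiCl replicate 4 and untreated replicate 4 stood apart most often, over all genes as well as for the forkhead genes. LiCl replicate 4 was the highest or the lowest of its 5 libraries for 23 of the 27 genes that passed the filter on low counts, against 67.5% of all 14041 genes tested, and untreated replicate 4 was so for 17, against 63.4% of all. Untreated replicate 5 was an extreme for 14 (56.3% of all genes). UV replicate 4 was an extreme for 8 (35.0% of all genes), the fewest among the UV-treated libraries together with UV replicate 5. In both LiCl-treated and untreated embryos, replicate 4 lay above the other 4 libraries for 6 genes (foxh1.2, foxi2, foxj2, foxj3, foxn2 and foxr1), against 24.5% of all genes. It lay below them in both for 10 (foxb1, foxc1, foxc2, foxd4l1.1, foxd4l1.2, foxf1, foxi4.1, foxj1.2, foxl1 and foxp4), against 21.6% of all genes. The deviation of replicate 4 from its condition mean over all genes correlated between LiCl-treated and untreated embryos (r = 0.731), but not between UV-treated and untreated embryos (r = -0.254). Results are therefore also given from the 12 libraries that remain without the 3 libraries numbered 4. These 12 still include untreated replicate 5.

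**Figure D1:**
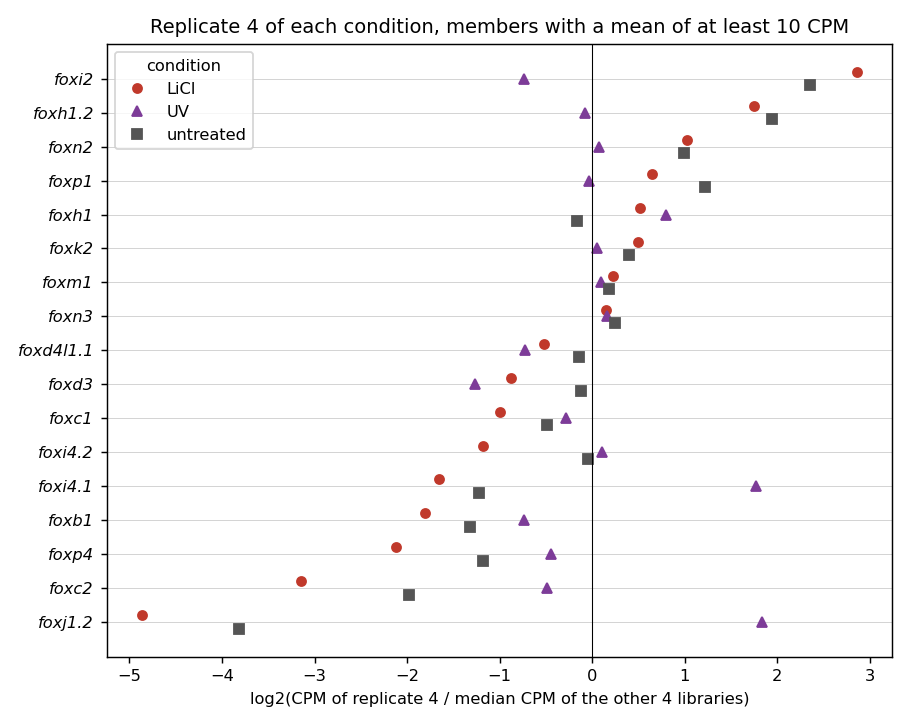
Replicate 4 against its own condition. The x axis is the log2 ratio of the CPM in replicate 4 to the median CPM of the other 4 libraries of the condition, for the 17 genes that averaged at least 10 CPM, listed on the y axis. Circles are LiCl-treated, triangles UV-treated and squares untreated embryos. For foxi2 the LiCl-treated library lies at 2.86 and the untreated one at 2.36, while the UV-treated one lies at -0.73.

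Of the 39 genes, 27 passed the filter and 12 did not. Among the 12 were foxb2, foxd2, foxe1, foxe3, foxf2, foxl2, foxn1, foxo1, foxo6, foxp3 and foxq1. The highest count of the 12 in any library was 30, and foxo6 had no count in any library. The counts of these genes were too low for the main test. None of the 3 genes grouped as head placode and endoderm factors (foxe1, foxe3 and foxq1) passed. Of the 27 that passed, 19 reached the cutoff of 0.662 CPM in every library of all 3 conditions. A further 4 (foxd4l1.2, foxf1, foxj1.2 and foxo3) did so in every library of 2 conditions. The remaining 4 (foxd1, foxj2, foxl1 and foxr1) did so in every library of no condition.

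On the RPKM scale foxi4.2, a Foxi-class gene of the early ectoderm, had the highest level of the 39 genes in each condition. It stood at 414 RPKM in LiCl-treated, 522 RPKM in UV-treated and 426 RPKM in untreated embryos, which was 47.2%, 60.1% and 48.8% of the summed RPKM of the 39 genes. The next in LiCl-treated and untreated embryos was foxd4l1.1, a gene of the early neural plate, with 127 and 94.6 RPKM. In UV-treated embryos foxd4l1.1 stood at 33.2 RPKM. A level of at least 10 RPKM was reached by 13 genes in LiCl-treated, 12 in UV-treated and 12 in untreated embryos. Exon lengths come from the deposited gene models, which are placed on v7.1 scaffolds.

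**Figure D2:**
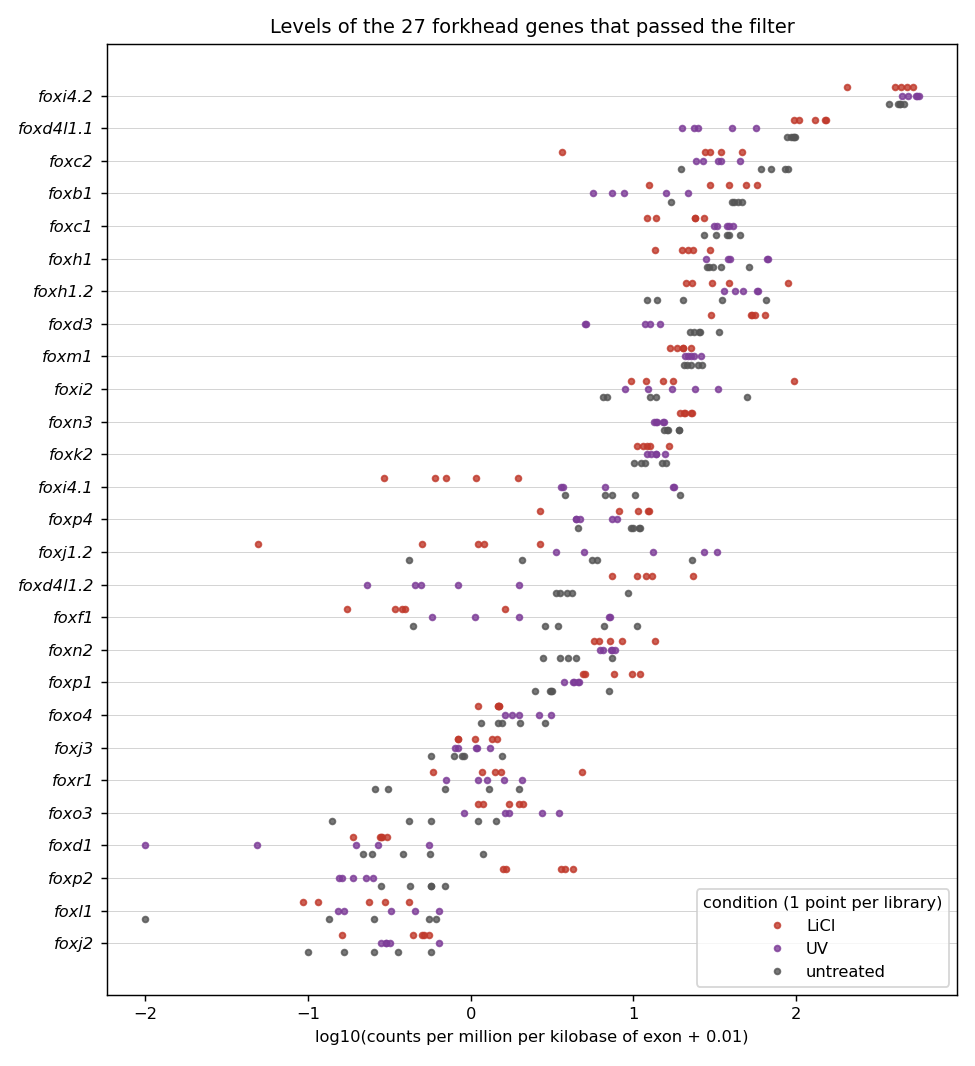
Levels of the 27 genes that passed the filter, ordered by their untreated mean. The x axis is the log10 of CPM per kilobase of exon plus 0.01, and each point is 1 library, with LiCl-treated embryos above UV-treated and untreated embryos in each row. The points of foxi4.2 lie farthest to the right, and those of foxi4.1, its neighbour in the genome, reach far lower in LiCl-treated embryos.

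Genes were called changed at a fold change of at least 2 and an FDR of at most 1% in edgeR's quasi-likelihood test, fitted to all 14041 genes that passed the filter. The comparison of LiCl-treated with UV-treated embryos, the opposite ends of the dorso-ventral axis, called 6 of the 27 forkhead genes, against 6.10% of all genes tested. The dorsal and neural plate factors foxd3, foxd4l1.1 and foxd4l1.2 and the FoxP gene foxp2 were higher in LiCl-treated embryos, against 3.55% of all genes in that direction. The ectodermal factor foxi4.1 and the Nodal effector foxh1 were lower, against 2.55% of all genes. LiCl-treated against untreated embryos called 2 of the 27, foxp2 higher and foxi4.1 lower, against 3.67% of all genes, 2.25% higher and 1.42% lower. UV-treated against untreated embryos called none in edgeR, against 0.0712% of all genes. Of the 27, 8 had an unadjusted p under 0.05 in that comparison, against 11.5% of all genes, and DESeq2 called 4 (foxb1, foxd3, foxd4l1.1 and foxd4l1.2, all lower in UV-treated embryos), against 0.869%. The 3 comparisons share libraries, so their counts are not independent.

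**Figure D3:**
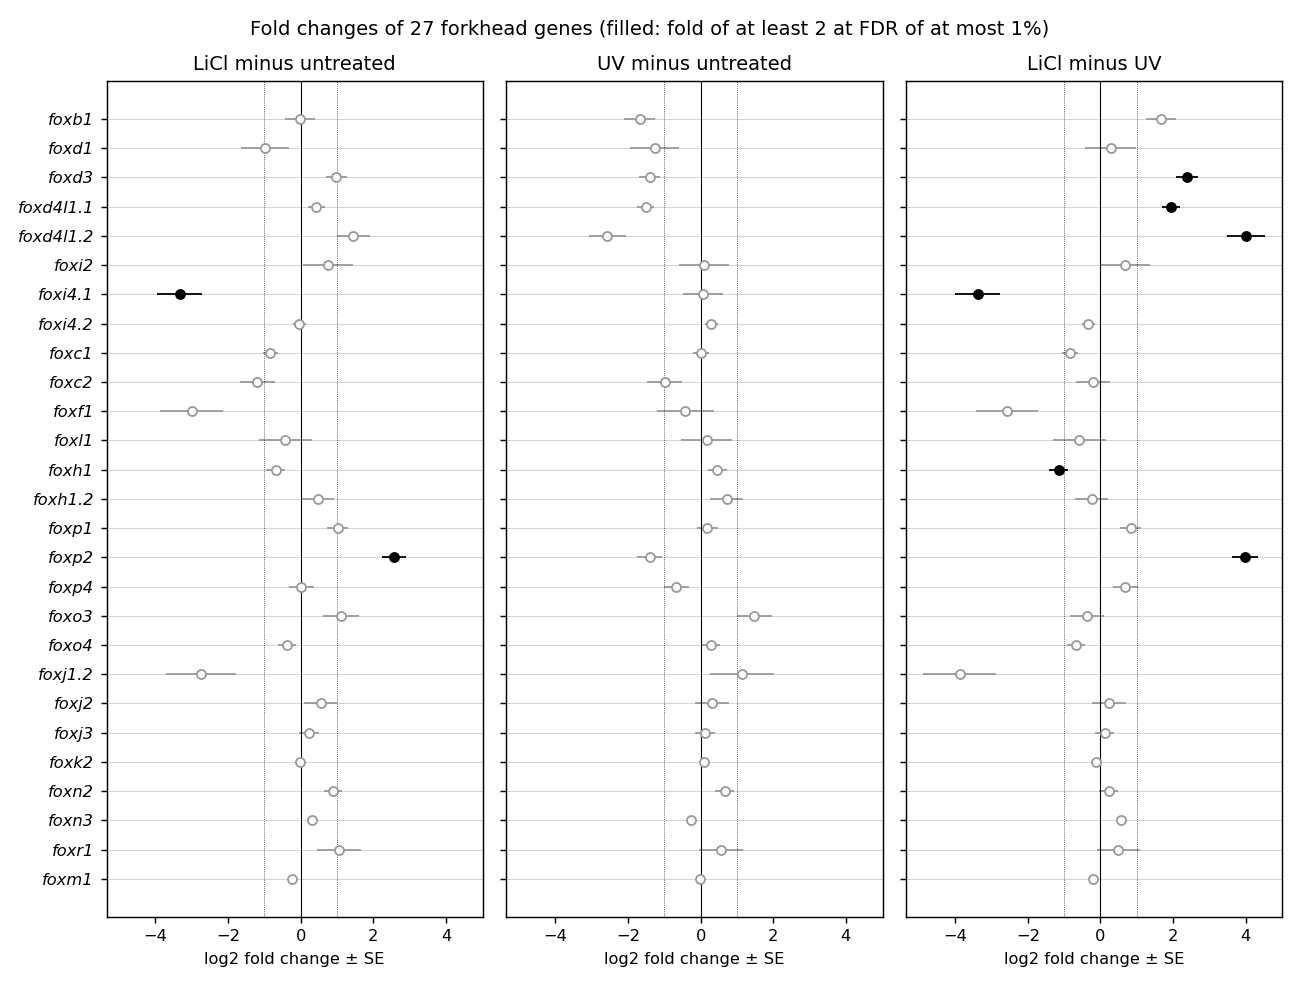
Fold changes of the 27 genes in the 3 comparisons, grouped by role. The x axis is the log2 fold change with its SE from edgeR, dotted lines mark a fold of 2, and filled points are the calls. In LiCl-treated against UV-treated embryos foxd3, foxd4l1.1, foxd4l1.2 and foxp2 are filled on the right and foxi4.1 and foxh1 on the left, and in UV-treated against untreated embryos no point is filled.

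Over the 27 genes the median log2 fold change was 0.12 in LiCl-treated against UV-treated embryos (0.03 over all genes tested), 0.01 in LiCl-treated against untreated embryos (0.01) and 0.09 in UV-treated against untreated embryos (-0.02). The median size of the log2 fold change, regardless of sign, was 0.66 (0.30 over all genes), 0.76 (0.30) and 0.46 (0.20) in the same comparisons. These medians are a description of genes that passed the filter. In the order of their condition means, 6 of the 27 went from LiCl-treated through untreated to UV-treated embryos downwards (foxd3, foxd4l1.1, foxd4l1.2, foxn3, foxp2 and foxp4). The reverse order held for 8 (foxc1, foxh1, foxi4.1, foxi4.2, foxj1.2, foxk2, foxl1 and foxo4). The order from LiCl-treated through UV-treated to untreated embryos downwards also held for 6. The orders take no account of spread, and foxk2 averaged 85.3 CPM in LiCl-treated and 85.8 CPM in untreated embryos. The share of all genes in each order was not computed.

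Among the dorsal and neural plate factors, 8 genes qualified and 5 passed the filter. foxd3, which in Xenopus acts in the organiser and later in the neural crest, had 120, 98.7, 105, 55.7 and 100.2 CPM in LiCl-treated embryos, 9.55, 22.0, 27.3, 9.44 and 23.6 CPM in UV-treated embryos, and 41.5, 48.1, 63.0, 43.7 and 47.0 CPM in untreated embryos. Each UV-treated library lay below each untreated one, and the lowest LiCl-treated library was replicate 4, between 2 untreated libraries. foxd3 was 5.22-fold higher in LiCl-treated than in UV-treated embryos (log2 fold change 2.38, SE 0.299, edgeR FDR 0.000114). Against untreated embryos it differed by 0.98 in LiCl-treated embryos (SE 0.286, FDR 0.0334) and by -1.41 in UV-treated embryos (SE 0.291, FDR 0.0411) on the log2 scale in edgeR, and neither was called.

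foxd4l1.1 encodes a Foxd4-class factor that in Xenopus keeps neural ectoderm in an immature state. It had 450, 309, 387, 288 and 443 CPM in LiCl-treated, 69.8, 120, 168, 58.7 and 74.3 CPM in UV-treated, and 283, 277, 291, 259 and 288 CPM in untreated embryos. The untreated libraries kept within 259 to 291 CPM, and the UV-treated libraries were all below them. The difference between LiCl-treated and UV-treated embryos was 3.82-fold (log2 fold change 1.93, SE 0.243, edgeR FDR 0.000117). UV-treated embryos differed from untreated ones by -1.51 on the log2 scale (SE 0.240, edgeR FDR 0.0121), just outside the threshold. Leaving out UV replicate 3 gave -1.79 (FDR 0.000425) and leaving out LiCl replicate 4 gave -1.51 (FDR 0.00837), and each of these passed. LiCl replicate 4 is not part of this comparison. No other of the 15 fits that leave out 1 library passed, and their FDR reached 0.0390. LiCl-treated embryos differed from untreated ones by 0.42 (SE 0.235, FDR 0.271).

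foxd4l1.2 lies next to foxd4l1.1 on scaffold 1 of v7.1, 13249 bases away on the opposite strand with no gene between them. foxd4l1.2 spans scaffold_1:95949201-95950452 and foxd4l1.1 spans scaffold_1:95963701-95966656, each with a single exon. How reads shared by such copies were counted is not stated, so the counts of both are uncertain. foxd4l1.2 had 13.1, 16.4, 14.9, 9.26 and 29.1 CPM in LiCl-treated, 0.275, 0.561, 2.46, 1.03 and 0.608 CPM in UV-treated, and 4.92, 5.28, 4.40, 4.2 and 11.6 CPM in untreated embryos. All UV-treated libraries were below all others, and replicate 5 was the highest in both other conditions.

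The foxd4l1.2 difference between LiCl-treated and UV-treated embryos was 16.2-fold (log2 fold change 4.02, SE 0.523, edgeR FDR 0.000141). The UV-treated libraries held 4, 7, 46, 17 and 7 counts of it, so the size of this fold is uncertain. UV-treated embryos differed from untreated ones by -2.57 on the log2 scale (SE 0.502, edgeR FDR 0.0302), and leaving out UV replicate 3 gave -3.26 (FDR 0.00317), which passed. No other of the 15 fits that leave out 1 library passed, and their FDR reached 0.105. LiCl-treated embryos differed from untreated ones by 1.45 (SE 0.460, FDR 0.0485). The log2 ratio of foxd4l1.2 to foxd4l1.1, with 0.5 CPM added to each, was higher by 1.57 in LiCl-treated than in UV-treated embryos (n = 5 each). The exact two-sided permutation test gave p = 0.00794, the smallest it can give, and 0.0238 after adjustment over the 9 such tests. Between LiCl-treated and untreated embryos the ratio differed by 0.98 (exact permutation p = 0.0317, adjusted 0.0714). In UV replicate 1 the added 0.5 CPM exceeded the level of foxd4l1.2 itself (0.275 CPM). These ratios were chosen after their values were seen, and with the libraries numbered 4 left out the first difference was 1.86. With 4 libraries per condition the exact test cannot give a p below 0.0286, which this difference reached, and its adjusted p was 0.0857. The adjusted value depends on how many of the 9 tests reach that lowest p.

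**Figure D4:**
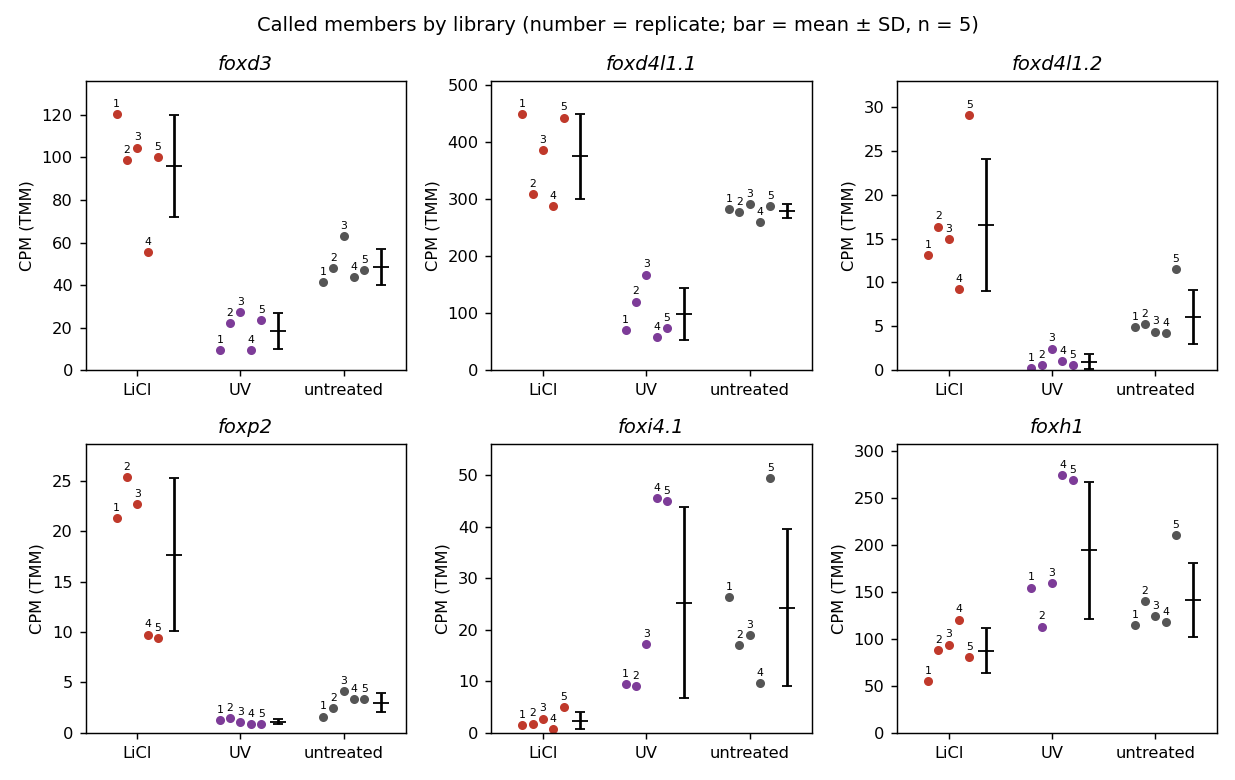
The 6 genes called in any comparison, library by library. The y axes are CPM from 0, the x axis gives the conditions, numbers are replicates, and the bar beside each group is the mean with SD over 5 libraries. The UV-treated libraries of foxd3 (9.44 to 27.3 CPM), foxd4l1.1 and foxd4l1.2 lie below all LiCl-treated and untreated ones, and the LiCl-treated libraries of foxi4.1 (0.725 to 4.97 CPM) lie below all others.

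foxb1, a factor of the posterior neural plate, averaged 89.1 ± 41.7 CPM in LiCl-treated, 28.1 ± 15.8 CPM in UV-treated and 90.0 ± 28.3 CPM in untreated embryos (SD, n = 5 each). Its log2 fold change in LiCl-treated against UV-treated embryos was 1.66 (SE 0.421, edgeR FDR 0.0136), which missed the threshold. Of the 15 fits that leave out 1 library it passed in 3, without LiCl replicate 4 (FDR 0.00277), UV replicate 3 (FDR 0.00617) or untreated replicate 4 (FDR 0.00866). Untreated replicate 4 is not part of this comparison. foxb1 also passed without all 3 libraries numbered 4 (log2 fold change 1.76, FDR 0.00392). Over the 22 alternative fits its FDR reached 0.0403. DESeq2 (adjusted p 0.000791) and edgeR with replicate number blocked over all 15 libraries (FDR 0.00284) also called foxb1. That block assumes pairing by number, which was not accepted for the UV-treated libraries. foxd1, which acts in the forebrain and kidney stroma, averaged 0.584, 0.467 and 1.16 CPM in LiCl-treated, UV-treated and untreated embryos and was called in no comparison.

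Early neural plate genes gave 22 tested genes, of which 9 were higher and 1 was lower in LiCl-treated than in UV-treated embryos in edgeR, with a median log2 fold change of 1.05 against 0.03 over all genes. Those with the largest changes were neurog3 (3.03), otx2 (2.69) and zic4 (2.66), which were higher, and neurog2 (-1.90), which was lower. Against untreated embryos 3 were lower in LiCl-treated ones (hesx1, six3 and neurog2) and none was higher, with a median of -0.14. In UV-treated against untreated embryos 1 was lower (hesx1) and none was higher, with a median of -1.13. The summed level of the list was 3327 to 4915 CPM in LiCl-treated, 1815 to 3477 CPM in UV-treated and 4213 to 4965 CPM in untreated libraries. Its part in the values of foxd3, foxd4l1.1 and foxd4l1.2 was not tested.

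Of the 3 ectodermal factors only foxi4.1 was called in edgeR, lower in LiCl-treated embryos than in both other conditions. foxi4.1, a Foxi-class gene expressed in ectoderm and sensory placodes, had 1.53, 1.79, 2.76, 0.725 and 4.97 CPM in LiCl-treated embryos, 9.49, 9.14, 17.3, 45.6 and 45.0 CPM in UV-treated embryos, and 26.4, 17.1, 19.0, 9.71 and 49.6 CPM in untreated embryos. The LiCl-treated libraries overlapped with neither other condition, while the UV-treated and untreated libraries spanned nearly the same range. foxi4.1 was 10.4-fold lower in LiCl-treated than in UV-treated embryos (log2 fold change -3.38, SE 0.619, edgeR FDR 0.00161) and 10.1-fold lower than in untreated embryos (-3.33, SE 0.618, FDR 0.00308). The second of these missed the threshold without LiCl replicate 1 (FDR 0.0103) and without LiCl replicate 2 (FDR 0.0118), with log2 fold changes of -3.19 and -3.25.

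In UV-treated against untreated embryos the log2 fold change of foxi4.1 was 0.05 (SE 0.551, edgeR FDR 0.985). It took the other sign, -0.47 (FDR 0.669), when the libraries numbered 4 were left out. UV replicate 4 was the highest of the UV-treated libraries for this gene and untreated replicate 4 the lowest of the untreated ones.

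foxi4.2 lies 19332 bases from foxi4.1 on scaffold 1 of v7.1, on the opposite strand and with no gene between them. foxi4.1 spans scaffold_1:201624553-201629894 and foxi4.2 spans scaffold_1:201649226-201651335, each with 2 exons. foxi4.2 averaged 670 ± 202 CPM in LiCl-treated, 845 ± 84.7 CPM in UV-treated and 690 ± 53.9 CPM in untreated embryos (SD, n = 5 each), and its log2 fold change lay between -0.33 and 0.29 in the 3 comparisons with no call in edgeR. The log2 ratio of foxi4.1 to foxi4.2, with 0.5 CPM added to each, averaged -7.99 in LiCl-treated, -5.36 in UV-treated and -4.99 in untreated embryos. It differed by -2.62 between LiCl-treated and UV-treated embryos and by -2.99 between LiCl-treated and untreated embryos (exact permutation p = 0.00794 and 0.0238 after adjustment for each, n = 5 per condition). The UV-treated and untreated ratios differed by -0.37 (exact permutation p = 0.548). This ratio was also chosen after its values were seen. With foxi4.2 not called, it largely restates the difference of foxi4.1 from the same libraries and is no separate evidence. Without the libraries numbered 4 the first pair of differences was -2.33 and -3.23, each at the smallest exact p that 4 libraries per condition allow (0.0286, adjusted 0.0857). How reads that match both copies were counted is not stated, so the levels of both are uncertain.

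foxi2, which in Xenopus is a maternal activator of ectodermal Foxi genes, spread widely among the libraries. It averaged 51.0 ± 63.3 CPM in LiCl-treated, 32.0 ± 16.2 CPM in UV-treated and 30.1 ± 30.6 CPM in untreated embryos (SD, n = 5 each). LiCl replicate 4 had 164 CPM, against 16.3 to 29.5 CPM in the other 4 LiCl-treated libraries, and untreated replicate 4 had 83.9 CPM, against 10.8 to 23.0 CPM in the other 4 untreated libraries. UV replicate 4 had 20.7 CPM and lay within the UV-treated range of 14.9 to 55.7 CPM. It was called in no comparison.

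Of 20 non-neural ectoderm genes tested, edgeR called 18 lower in LiCl-treated than in UV-treated embryos and none higher, with a median log2 fold change of -2.88 against 0.03 over all genes. The largest changes were those of tp63 (-4.93), msx1 (-4.22), dlx6 (-3.94) and dlx3 (-3.88). In LiCl-treated against untreated embryos 14 were lower and none higher (median -2.18), and in UV-treated against untreated embryos none was called (median 0.71). The summed level of the list was 2312 to 5282 CPM in LiCl-treated, 11680 to 22681 CPM in UV-treated and 7675 to 15203 CPM in untreated libraries, and none of its genes was at 0 in all libraries of a condition. Their part in the value of foxi4.1 was not tested.

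Mesodermal factors numbered 6, of which 4 passed the filter. In the edgeR fit of all 15 libraries without a block, none of the 4 was called. All 4 had lower fitted values in LiCl-treated embryos than in both other conditions. The share of all genes for which that held was not computed. foxc1 and foxc2 act in paraxial mesoderm and somites, foxf1 in lateral plate and gut mesenchyme, and foxl1 in gut mesenchyme. foxc1 averaged 53.1 ± 18.0 CPM in LiCl-treated, 95.1 ± 10.9 CPM in UV-treated and 94.4 ± 17.8 CPM in untreated embryos (SD, n = 5 each). The LiCl-treated libraries of foxc1 were all below the UV-treated ones, with a log2 fold change of -0.84 (edgeR FDR 0.0127), and the change was under 2-fold. foxc2 averaged 69.4 ± 38.3 CPM in LiCl-treated, 80.3 ± 20.2 CPM in UV-treated and 159 ± 68.0 CPM in untreated embryos (SD, n = 5 each). Its log2 fold change in LiCl-treated against UV-treated embryos was -0.21 (SE 0.475, edgeR FDR 0.850), and it took the other sign, 0.072, without LiCl replicate 4. foxc2 and foxl1 are neighbours on scaffold 4 of v7.1, 13698 bases apart, and foxl1 averaged 0.428, 0.649 and 0.583 CPM in LiCl-treated, UV-treated and untreated embryos. In LiCl-treated embryos the log2 fold change of foxl1 was -0.59 against UV-treated (SE 0.735, edgeR FDR 0.686) and -0.42 against untreated embryos (SE 0.741, FDR 0.789). Each was smaller than its SE.

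The replicate numbers paired the LiCl-treated with the untreated libraries, since the deviations of same-numbered libraries correlated over all genes in all 5 pairs (r = 0.338 to 0.731). A fit of these 10 libraries with the replicate number as a block called 6 of 25 forkhead genes in edgeR, against 6.69% of 13574 genes tested. foxp2 (log2 fold change 2.49, SE 0.353, FDR 0.00168) and foxd4l1.2 (1.45, SE 0.160, FDR 0.000350) were higher in LiCl-treated embryos, against 4.02% of all genes. foxi4.1 (-3.38, SE 0.213, FDR 1.85e-05), foxf1 (-3.0, SE 0.315, FDR 0.000286), foxj1.2 (-2.55, SE 0.231, FDR 0.000129) and foxc2 (-1.38, SE 0.217, FDR 0.00352) were lower, against 2.67% of all genes. Each of the 6 differed in the same direction within all 5 pairs. The same held for genes not called, among them foxc1, foxd3, foxd4l1.1, foxm1, foxn2, foxn3 and foxo3. The share of all genes for which it held was not computed. Fitting the block to all 15 libraries instead, edgeR called foxi4.1 (FDR 0.00136) and foxp2 (FDR 0.000547), 2 of 27 forkhead genes against 5.26% of all genes. There foxd4l1.2 (FDR 0.0229), foxf1 (FDR 0.0167), foxj1.2 (FDR 0.0519) and foxc2 (FDR 0.0221) missed the threshold. That fit also blocks the UV-treated libraries, whose numbers were not accepted as pairs (lowest r = -0.254 against untreated libraries).

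The libraries of foxf1 had 0.814, 0.897, 0.941, 0.403 and 3.92 CPM in LiCl-treated and 8.34, 16.1, 6.93, 1.05 and 25.9 CPM in untreated embryos. LiCl replicate 5 lay above untreated replicate 4, so the conditions overlapped, although each LiCl-treated library was below the untreated one of its number. In UV-treated embryos foxf1 had 4.81, 2.57, 1.39, 17.2 and 17.4 CPM. For foxc2 the log2 difference within pairs ranged from -2.37 in replicate 4 to -0.82 in replicate 3. With the libraries numbered 4 left out and no block, edgeR called foxc2 lower in LiCl-treated than in untreated embryos (log2 fold change -1.13, SE 0.195, FDR 0.00259). In all 15 libraries without a block, foxc2 was not called in this comparison (log2 fold change -1.19, SE 0.48, edgeR FDR 0.115). Of the 22 alternative fits 2 called it, and none of the 15 that leave out 1 library did. Nor were foxf1 (FDR 0.0322) and foxj1.2 (FDR 0.0733) called in edgeR's fit of all 15 libraries without a block.

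**Figure D5:**
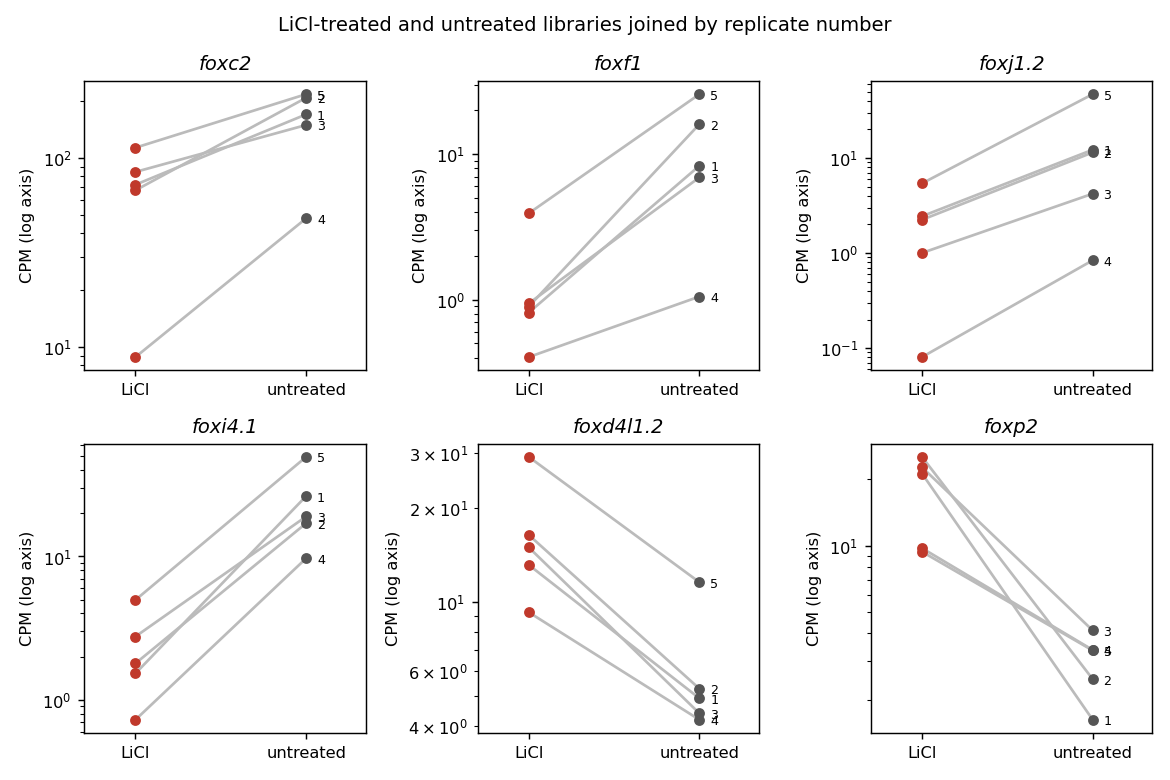
LiCl-treated and untreated libraries of the 6 genes called in the fit with the replicate number as a block. The y axes are CPM on a log scale, each point is 1 library, and lines join libraries of the same number, which stands beside the untreated point. The lines of foxc2, foxf1, foxj1.2 and foxi4.1 all run upwards to the untreated library and those of foxd4l1.2 and foxp2 all run downwards, and replicate 4 is the lowest untreated library in each panel but that of foxp2.

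Of 17 paraxial and lateral plate mesoderm genes tested, 1 was higher and 3 were lower in LiCl-treated than in UV-treated embryos in edgeR, with a median log2 fold change of -0.17. They were gata4 (1.27), msgn1 (-4.05), mespb (-2.25) and bmp4 (-1.26). Against untreated embryos LiCl-treated ones also had 1 higher and 3 lower (median -0.59), and in UV-treated against untreated embryos none was called (median -0.20). The list summed to 1076 to 1243 CPM in LiCl-treated, 1370 to 1476 CPM in UV-treated and 1277 to 1877 CPM in untreated libraries. Its part in the values of the mesodermal Fox genes was not tested.

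foxh1 encodes the DNA-binding partner of Smad2 in Nodal signalling and is deposited in the egg. It had 55.1, 87.7, 93.9, 120 and 80.3 CPM in LiCl-treated, 154, 113, 159, 274 and 269 CPM in UV-treated, and 115, 140, 124, 118 and 210 CPM in untreated embryos. LiCl replicate 4 lay above UV replicate 2, so the libraries overlapped. In LiCl-treated against UV-treated embryos foxh1 was 2.21-fold lower (log2 fold change -1.15, SE 0.261, edgeR FDR 0.00726). The call held in 9 of the 15 fits that leave out 1 library. Among these 9 are all fits that leave out an untreated library, which is not part of this comparison. Every loss came from leaving out a LiCl-treated or UV-treated library. The call was lost without LiCl replicate 1 (FDR 0.0168), 2 (FDR 0.0199), 3 (FDR 0.0163) or 5 (FDR 0.0171), and without UV replicate 4 (FDR 0.0236) or 5 (FDR 0.0229), with log2 fold changes of -1.17 to -0.995. Without the 3 libraries numbered 4 it was -1.13 (FDR 0.0105). Against untreated embryos its log2 fold change was -0.69 (SE 0.26, FDR 0.0913) in LiCl-treated and 0.46 (SE 0.258, FDR 0.547) in UV-treated embryos.

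A second row, foxh1.2, has 639 exon bases and is the only forkhead gene on scaffold 2250, while foxh1 has 4048 exon bases on scaffold 119. It averaged 26.0 ± 18.2 CPM in LiCl-treated, 30.9 ± 6.17 CPM in UV-treated and 18.8 ± 14.2 CPM in untreated embryos (SD, n = 5 each), and was not called. The ratio of foxh1 to foxh1.2 differed between no pair of conditions past adjustment (exact permutation, adjusted p from 0.171 to 0.420, n = 5 each). How reads common to both were counted is not stated. Of 25 tested foxh1 partners and Nodal targets, 4 were higher in LiCl-treated than in UV-treated embryos in edgeR (gsc 4.1, lhx1 2.02, nodal 1.85 and eomes 1.23 on the log2 scale) and none was lower, with a median of 0.24. In LiCl-treated against untreated embryos 1 was higher (eomes, 1.33) and none lower (median 0.62), and in UV-treated against untreated embryos none was called (median 0.06).

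The FoxP genes encode repressors that bind DNA as dimers and act in brain, lung and heart development. foxp2 had 21.3, 25.3, 22.7, 9.75 and 9.39 CPM in LiCl-treated, 1.31, 1.44, 1.07, 0.908 and 0.868 CPM in UV-treated, and 1.62, 2.48, 4.12, 3.36 and 3.34 CPM in untreated embryos. No library of one condition overlapped with another condition. foxp2 was 15.7-fold higher in LiCl-treated than in UV-treated embryos (log2 fold change 3.97, SE 0.358, edgeR FDR 1.02e-05) and 5.93-fold higher than in untreated embryos (2.57, SE 0.330, FDR 0.000381). Both calls held in all 22 alternative fits. The UV-treated libraries held 19, 18, 20, 15 and 10 counts of foxp2, so the size of the 15.7-fold difference is uncertain. In UV-treated against untreated embryos its log2 fold change was -1.40 (SE 0.340, FDR 0.0862), which was not called.

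In edgeR's fit of all 15 libraries without a block, neither other FoxP gene that passed the filter was called. foxp1 averaged 25.0 ± 9.0 CPM in LiCl-treated, 13.9 ± 1.14 CPM in UV-treated and 12.2 ± 6.13 CPM in untreated embryos (SD, n = 5 each). Its log2 fold change in LiCl-treated against untreated embryos was 1.02 (SE 0.293, edgeR FDR 0.0306). It passed the threshold without untreated replicate 4, which had 23.1 CPM against 8.01 to 10.2 CPM in the other 4 untreated libraries (log2 fold change 1.38, FDR 0.00185), without all 3 libraries numbered 4 (1.28, FDR 0.00372) and in DESeq2 (adjusted p 0.00614). These were the only 3 of 22 alternative fits to call foxp1, and its FDR reached 0.0935 in the others. foxp4 averaged 73.0 ± 32.1 CPM in LiCl-treated, 45.5 ± 13.5 CPM in UV-treated and 72.4 ± 20.8 CPM in untreated embryos (SD, n = 5 each) and was not called. Whether foxp2 differed from foxp1 and foxp4 in its response was not tested.

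foxj1.2 is a paralog of foxj1, the regulator of motile cilia, and is kept here because its symbol is not among the exclusions. Its libraries spread over the widest relative range of the 17 genes that averaged at least 10 CPM. It had 2.44, 2.24, 1.00, 0.0806 and 5.41 CPM in LiCl-treated, 10.2, 27.2, 6.80, 66.6 and 55.6 CPM in UV-treated, and 12.2, 11.5, 4.21, 0.840 and 47.0 CPM in untreated embryos. LiCl replicate 4 rests on 1 count. The LiCl-treated libraries were all below the UV-treated ones, with a log2 fold change of -3.87 (SE 1.00, edgeR FDR 0.0156) that missed the threshold. Of the 15 fits that leave out 1 library, it passed in 2, without untreated replicate 4 (FDR 0.00689) and without untreated replicate 5 (FDR 0.00782), with -3.87 in each. Neither library is part of this comparison. No fit that leaves out a single LiCl-treated or UV-treated library passed. Over the 22 alternative fits the FDR reached 0.0433. The difference in foxj1.2 also passed in DESeq2 (adjusted p 0.000802) and in edgeR with replicate number blocked over all 15 libraries (FDR 0.00810). Pairing by number was not accepted for the UV-treated libraries in that block. Of the 6 forkhead genes outside the rule, edgeR called foxa4 higher (1.64) and foxj1 lower (-2.03) in LiCl-treated than in UV-treated embryos and none in either comparison with untreated embryos. Their median log2 fold change was 0.21 in LiCl-treated against UV-treated, 0.34 in LiCl-treated against untreated and 0.20 in UV-treated against untreated embryos.

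foxn3, a repressor linked to cell cycle checkpoints, varied little among the libraries of a condition. It had 153, 140, 140, 155 and 131 CPM in LiCl-treated, 94.0, 93.4, 102, 104 and 90.2 CPM in UV-treated, and 109, 110, 104, 130 and 130 CPM in untreated embryos. The 3 conditions did not overlap with each other, yet the highest UV-treated and the lowest untreated library were both at 104 CPM after rounding. Its log2 fold change in LiCl-treated against UV-treated embryos was 0.57 (SE 0.0927, edgeR FDR 0.000680), under the fold threshold. foxn2 averaged 47.1 ± 18.0 CPM in LiCl-treated, 40.4 ± 3.73 CPM in UV-treated and 25.4 ± 10.2 CPM in untreated embryos (SD, n = 5 each). Its log2 fold change in LiCl-treated against untreated embryos was 0.89 (SE 0.261, edgeR FDR 0.0336) and became a call, at 1.16 (FDR 0.00430), without untreated replicate 4. In that comparison foxn2 was called in no other of the 22 alternative fits, and its FDR reached 0.0935. Its model shares 458 exon bases with klraq1 on the same strand, so its counts are uncertain.

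foxk2, a widely expressed Foxk-class repressor, averaged 85.3 ± 16.0 CPM in LiCl-treated, 92.3 ± 8.90 CPM in UV-treated and 85.8 ± 17.2 CPM in untreated embryos (SD, n = 5 each). Its log2 fold changes lay between -0.11 and 0.11. foxj2, foxj3 and foxr1 had means under 10 CPM and no call. foxm1, which drives transcription for entry into mitosis, averaged 69.1 ± 7.59 CPM in LiCl-treated, 80.4 ± 7.05 CPM in UV-treated and 81.3 ± 8.72 CPM in untreated embryos (SD, n = 5 each) and was not called in edgeR. Of 17 cell cycle genes listed as FoxM1 targets, 2 were lower in LiCl-treated than in UV-treated embryos (cdk1 -1.04 and cdc25b -1.01) and none was called in either comparison with untreated embryos. The medians of this list were -0.39 in LiCl-treated against UV-treated, -0.37 in LiCl-treated against untreated and -0.02 in UV-treated against untreated embryos.

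FoxO factors are kept out of the nucleus by Akt and act in stress and metabolic control. Only foxo3 and foxo4 of the 4 passed the filter. foxo3 averaged 2.30, 2.98 and 1.04 CPM and foxo4 averaged 6.81, 10.8 and 8.82 CPM in LiCl-treated, UV-treated and untreated embryos, and neither was called in edgeR. The LiCl-treated libraries of foxo4 were all below the UV-treated ones, with a log2 fold change of -0.66 (FDR 0.0899). Of 25 tested genes listed under PI3K-Akt-FoxO signalling, 1 was higher (pdk1) and 1 was lower (gadd45a) in LiCl-treated than in UV-treated embryos (median 0.01). None was called in LiCl-treated against untreated (median 0.09) or UV-treated against untreated embryos (median 0.00). Whether the gene with the symbol pdk1 is the kinase of this pathway was not checked.

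Libraries of 2 conditions did not overlap for 10 of the 27 genes in LiCl-treated against UV-treated embryos, against 12.4% of all genes tested. Of these, 6 were higher in LiCl-treated embryos (foxd3, foxd4l1.1, foxd4l1.2, foxn3, foxp1 and foxp2), against 6.32% of all genes, and 4 were lower (foxc1, foxi4.1, foxj1.2 and foxo4), against 6.04%. In LiCl-treated against untreated embryos this held for 3 of the 27 (foxi4.1, foxn3 and foxp2), against 8.36% of all genes. In UV-treated against untreated embryos it held for 5, all lower in UV-treated embryos (foxd3, foxd4l1.1, foxd4l1.2, foxn3 and foxp2), against 3.22% of all genes in either direction and 2.19% lower. At an FDR of at most 5% and any fold, edgeR found 3 of the 27 in this comparison (foxd3, foxd4l1.1 and foxd4l1.2), against 0.584% of all genes. That rule found 10 in LiCl-treated against UV-treated embryos (15.2% of all genes) and 9 in LiCl-treated against untreated embryos (13.5%). With the threshold kept, DESeq2 called 4 of the 27 in LiCl-treated against untreated embryos (foxf1, foxi4.1, foxp1 and foxp2), against 6.88% of all genes, and the 12 libraries without numbers 4 called 4 in edgeR (foxc2, foxi4.1, foxp1 and foxp2), against 4.94%. The replicate number as a block in all 15 libraries called 2 in UV-treated against untreated embryos (foxd3 and foxd4l1.1, both lower), against 0.328%. The numbers of the UV-treated libraries in that block were not accepted as pairs. In LiCl-treated against UV-treated embryos that block called 8 (foxb1 and foxj1.2 beside the first 6), against 7.74% of all genes, and DESeq2 called 9 (foxb1, foxf1 and foxj1.2 beside them), against 9.48%.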

How the data were processed

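Per the labels, poly(A) libraries were made with the TruSeq RNA protocol, and the submitters' processing notes name CASAVA 1.8.2, TopHat2 2.1.1 and 2.0.10, HTSeq and DESeq2. The deposited counts are whole reads per gene, not normalised. The authors made them from paired-end reads of 50 bases with TopHat2 and HTSeq-count in intersection-nonempty mode. The setting for reads that align at several places is not stated. The strand setting is not given in the sources used here. The deposited gene models hold exon positions on v7.1 scaffolds. RefSeq names matched 38 of the 39 genes (UCB_Xtro_10.0), and its coordinates were not used.

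The main test was the robust quasi-likelihood fit of edgeR 4.0.16 (R 4.3.3) to all 15 libraries, with filterByExpr, TMM, condition alone in the model and a prior count of 0.125. CPM are counts per TMM-scaled library size. FDR are Benjamini-Hochberg values over all 14041 genes tested. A SE is the absolute log2 fold change over the root of its F statistic. The script was tested on simulated data. Alternatives were DESeq2 1.42.0 (Wald test), its size factors in edgeR, no filter, an FDR of 5% at any fold, the replicate number as a block, 10 libraries alone and each library left out. The fit without the libraries numbered 4 and the ratios of neighbouring copies (exact permutation, n = 5) were added after values were seen. Replicates came from 5 independent experiments. Replicate numbers were accepted as pairs where every correlation of deviations exceeded 0.1, which held for LiCl-treated with untreated libraries only. Reads carry no molecular identifiers.

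The genes and lists were chosen with earlier results of these data known. Genes of the rule are accounted for, apart from an item that is not reported here, with all libraries for genes called in any comparison, means for others of at least 10 CPM, and up to 4 genes per list, those with the largest changes among the called. Library values of foxf1, foxj1.2 and foxn3 were added after they were seen.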

Additional observations from a re-analysis of the deposited data

Results flagged for a closer look

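In 57 groups of 5 libraries (19 genes in 3 conditions), 9 held a library far from the other 4. Its gap to the nearest library exceeded 0.71 of the range of the 5. The groups share the same 15 libraries, and the share of all genes with such a library was not computed. The 9 groups were therefore not set against chance. Replicate 4 was the distant library in 6 of the 9. foxi2 stood at 164 CPM in LiCl replicate 4 (others 16.3 to 29.5) and at 83.9 CPM in untreated replicate 4 (others 10.8 to 23.0). foxh1.2 stood at 57.5 CPM in LiCl replicate 4 (others 13.6 to 24.7). In untreated replicate 4, foxb1 stood at 40.5 CPM (others 96.0 to 111), foxp4 at 36.1 CPM (others 75.9 to 86.8) and foxp1 at 23.1 CPM (others 8.01 to 10.2). In untreated replicate 5, foxd4l1.2 stood at 11.6 CPM (others 4.2 to 5.28), foxh1 at 210 CPM (others 115 to 140) and foxj1.2 at 47.0 CPM (others 0.840 to 12.2).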

How the results depend on the processing

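Between LiCl-treated and UV-treated embryos the calls of foxd3, foxd4l1.1, foxd4l1.2, foxp2 and foxi4.1, and between LiCl-treated and untreated embryos that of foxp2, held in all 22 alternative fits. The call of foxh1 held in 13 of 22 (FDR 0.00033 to 0.0236), and that of foxi4.1 between LiCl-treated and untreated embryos in 20 of 22 (FDR up to 0.0118). The 13 for foxh1 include all fits that leave out an untreated library, which is not part of its comparison. For LiCl-treated against untreated embryos, where 515 genes and 2 forkhead genes were called, DESeq2 called 966 and 4, the replicate block 908 and 6 in 10 libraries and 738 and 2 in 15, the same 10 libraries without it 247 genes, the 12 libraries without numbers 4 called 4 forkhead genes, and an FDR of 5% gave 1889 and 9. For UV-treated against untreated embryos, with 10 and 0, DESeq2 called 122 and 4. The replicate block in 15 libraries called 46 and 2 (foxd3 and foxd4l1.1), and 10 libraries called 0 genes with and without the block. The 12 libraries without numbers 4 called 66 genes and 0 forkhead genes, and an FDR of 5% gave 82 and 3. Between LiCl-treated and UV-treated embryos, with 857 and 6, DESeq2 called 1331 and 9, the replicate block in 15 libraries 1087 and 8, and an FDR of 5% gave 2135 and 10. There the replicate block in 10 libraries called 603 and 5. The 12 libraries without numbers 4 called 1057 and 6, with 5 forkhead genes higher and 1 lower. Leaving out single libraries gave 265 to 701, 3 to 41 and 618 to 1140 genes and 1 to 4, 0 to 2 and 5 to 8 forkhead genes in the 3 comparisons in that order. The log2 fold change of foxi4.1 in UV-treated against untreated embryos reversed to -0.024 and -0.12 under the replicate block in 15 and 10 libraries and to -0.47 in the 12 libraries, and ranged from -0.27 to 0.49 with single libraries left out. The cause of these changes was not tested. Of the 5 UV-treated libraries, all but replicate 4 had deviations that correlated with those of the same number, so the block was not taken as a pairing there.

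Counts under the cutoff left 12 forkhead genes out of the main test. How reads common to neighbouring copies were counted is not stated.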
